A study of Drosophila melanogaster with 24 samples.

Results

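Transcripts of a pair of membrane transporter genes, NaPi-III and Fatp1, were followed over the sexes, tissues and strains of a Drosophila melanogaster study of the lol (Lobe-less) mutant. The members were taken by their FlyBase transcript IDs, FBtr0076213 for NaPi-III and FBtr0080133 for Fatp1, and not by any measured value. They are 2 of the 13873 transcripts with values on the array.

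NaPi-III belongs to the sodium-dependent phosphate cotransporters of the PiT type, which use the sodium gradient to carry inorganic phosphate into cells. Phosphate taken up this way goes into nucleotides, phospholipids and ATP. Fatp1 belongs to the fatty acid transport proteins (the SLC27 family), which promote the uptake of long-chain fatty acids and couple them to coenzyme A. In the fly retina, Fatp is known for its part in lipid storage and in the survival of photoreceptors.

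Total RNA was hybridised to a 1-colour NimbleGen array with 8 probes for each transcript. The lol strain and the w[1118] controls were kept at 23 °C and collected on day 2 after eclosion, and each RNA extraction took 100 whole bodies or 100 heads. The 8 groups were female heads, male heads, female whole bodies and male whole bodies of w[1118] and the same 4 of lol, with 3 arrays in each, and the labels call the 3 separate cultures. The nature of the lol allele is not given in the sources used here, heads were sieved from frozen carcasses, and a whole-body sample still holds the head.

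The values are log2 expression values made by the authors with RMA, which sets all arrays to nearly the same distribution of values. A level is therefore relative to the other transcripts of its array, and a fall in the number of cells of a type cannot be told apart from less RNA per cell. Levels of different transcripts come from different probes, so NaPi-III and Fatp1 are compared here by their differences between groups and not by their levels. Array values carry no counts, so their precision rests on the spread between replicate arrays and on how many arrays each group has. Replicate arrays correlated across transcripts at 0.97 or more in 6 groups, while the male heads went as low as 0.91 in w[1118] and 0.93 in lol. The photoreceptor, neuron, glia, fat body, ovary and testis markers could not be matched to IDs (0 of 6, 4, 1, 3, 4 and 4), so the labelled tissues were not checked by named markers.

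On the reference assembly (Release 6) NaPi-III lies on chromosome arm 3L between Ufd1 and CG14143, and its span overlaps the genes nol and CG32074. Fatp1 lies on arm 2L between CG7384 and Lrr47, and no other gene of that table overlaps it. The table lists 2 RefSeq transcripts for NaPi-III and 4 for Fatp1. Each gene was measured through a single FlyBase transcript of the array design, an older annotation, and which of the RefSeq transcripts its probes detect was not tested. The reference table ties FBtr0080133 to both an upstream and a main open reading frame of Fatp1, and FBtr0076213 to a main open reading frame of NaPi-III.

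NaPi-III stood higher in heads than in whole bodies in every sex and strain, and within whole bodies it stood higher in females than in males. Averaged over the 4 sex and strain pairs, heads exceeded bodies by 1.18 ± 0.07 (SE) log2, a ratio of 2.27 with a 95% interval of 2.04 to 2.53 (adjusted p = 4.28e-11, limma). None of the 4 comparisons of lol with w[1118] passed the test for NaPi-III. Calls throughout are adjusted p-values under 0.05 from limma, with the Benjamini-Hochberg adjustment over the 13873 transcripts.

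In female heads, NaPi-III read 14.93, 14.90 and 14.98 on the w[1118] arrays and 15.08, 15.20 and 14.90 on the lol arrays. In male heads it read 15.04, 15.07 and 14.83 in w[1118] and 15.13, 14.96 and 15.28 in lol. All 12 head arrays thus lay between 14.83 and 15.28, and the ranges of the 4 head groups overlapped one another. In female whole bodies it read 14.17, 13.90 and 14.40 in w[1118] and 13.85, 14.05 and 14.20 in lol. In male whole bodies it read 13.66, 13.78 and 13.37 in w[1118] and 13.49, 13.82 and 13.44 in lol. Every head array lay above every body array, and every female body array lay above every male body array. The share of other transcripts with such separations was not counted.

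**Figure D1:**
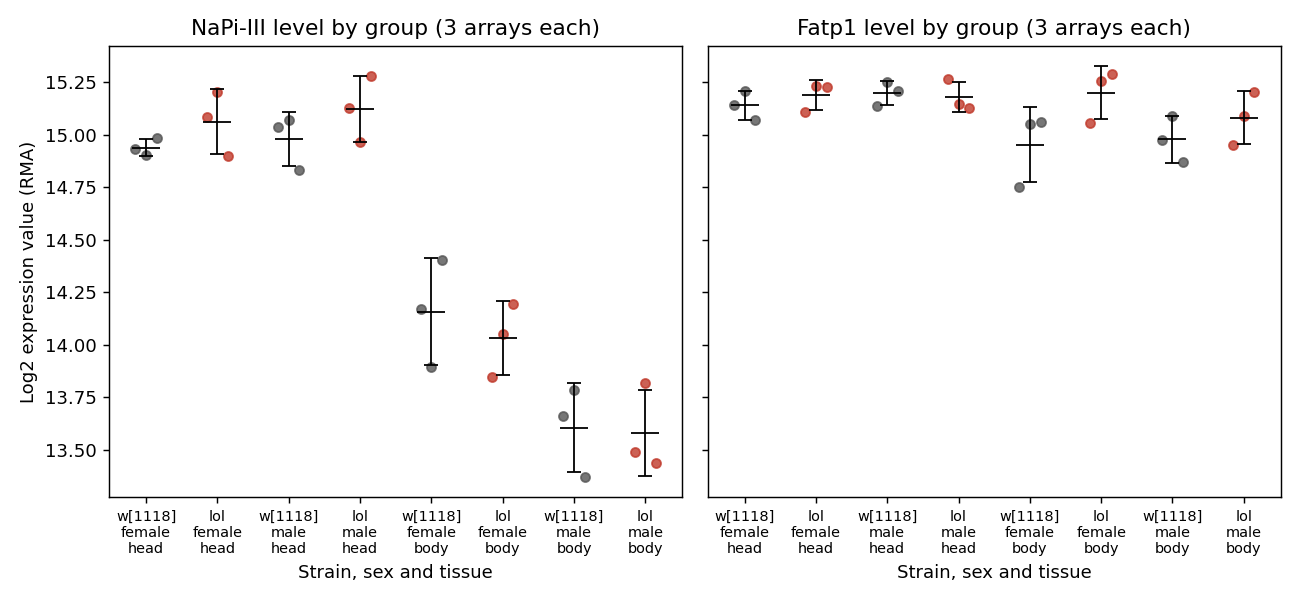
Log2 expression values of NaPi-III (left) and Fatp1 (right) on each of 24 arrays, in 8 groups by strain (grey w[1118], red lol), sex and tissue; horizontal bars are group means and whiskers are SDs (n = 3). NaPi-III falls into heads (14.83 to 15.28), female bodies (13.85 to 14.40) and male bodies (13.37 to 13.82), while all Fatp1 values lie between 14.75 and 15.29.

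The order of the group means of NaPi-III ran from lol male heads at 15.12 ± 0.16 (SD, n = 3), through lol female heads at 15.06 ± 0.15, w[1118] male heads at 14.98 ± 0.13 and w[1118] female heads at 14.94 ± 0.04. Female bodies followed, at 14.16 ± 0.25 in w[1118] and 14.03 ± 0.17 in lol. Male bodies were last, at 13.61 ± 0.21 in w[1118] and 13.58 ± 0.21 in lol. Neighbours in this order had overlapping ranges except at 2 steps. These were the step of 0.78 from w[1118] female heads to w[1118] female bodies and the step of 0.43 from lol female bodies to w[1118] male bodies.

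In w[1118] females, NaPi-III was higher in heads than in bodies by 0.78 ± 0.15 (SE) log2, a ratio of 1.72 (adjusted p = 0.000289, limma), where 38.4% of all transcripts were called in either direction. In lol females the difference was 1.03 ± 0.15, a ratio of 2.04 (adjusted p = 1.57e-05), where 37.2% were called. In w[1118] males it was 1.37 ± 0.15, a ratio of 2.59 (adjusted p = 3.77e-07), with a background of 55.1%. In lol males it was 1.54 ± 0.15, a ratio of 2.91 (adjusted p = 5.16e-08), with a background of 63.2%. A call between head and body was thus common on this array, and for the mean of the 4 pairs it was made for 72.5% of transcripts. The size of the mean difference placed NaPi-III among the more head-enriched transcripts, since 8.45% of all transcripts had a higher head minus body value.

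**Figure D2:**
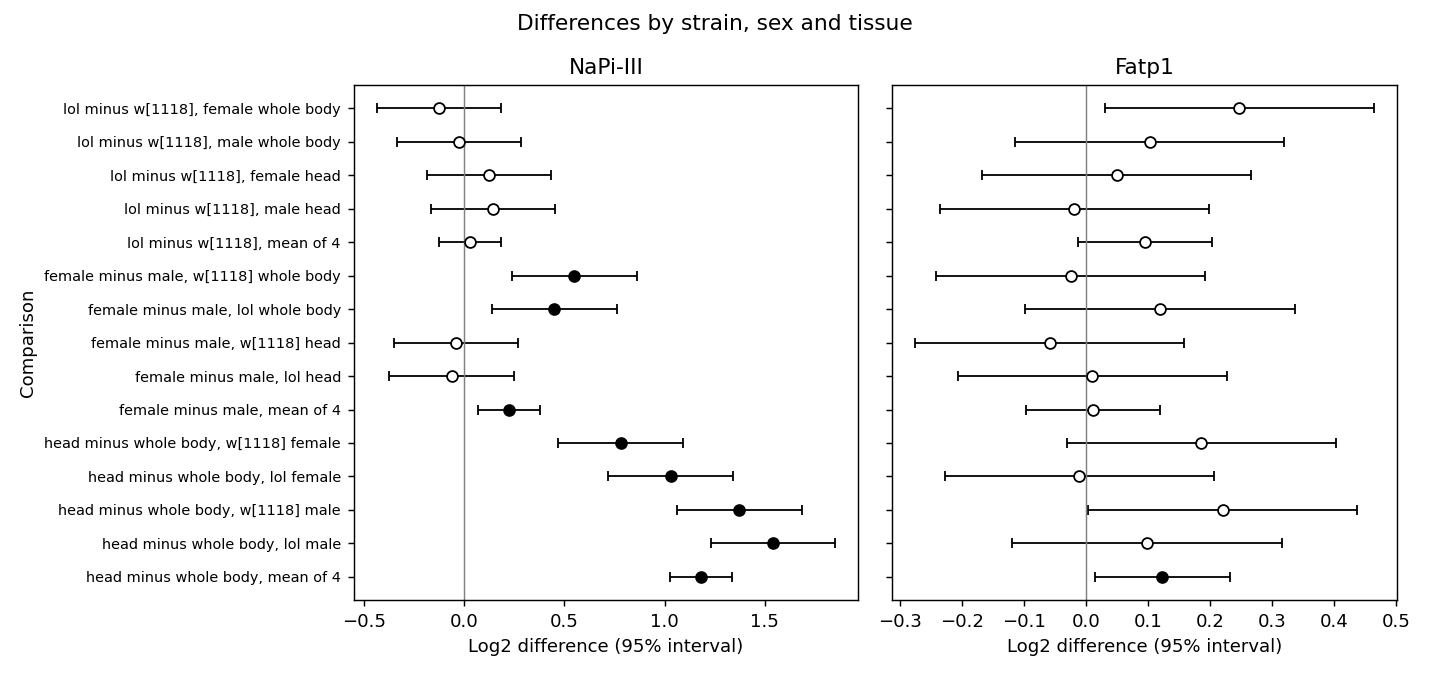
Log2 differences of NaPi-III (left) and Fatp1 (right) with 95% intervals for lol minus w[1118], female minus male and head minus whole body, in each pair of groups and as the mean of 4; filled points passed at an adjusted p under 0.05 and the horizontal scales of the panels differ. For NaPi-III, all 4 head minus body differences (0.78 to 1.54) and both female minus male body differences (0.55 and 0.45) passed, and no lol minus w[1118] difference did.

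The sexes differed for NaPi-III in whole bodies. Females exceeded males by 0.55 ± 0.15 (SE) log2 in w[1118], a ratio of 1.46 (adjusted p = 0.00526, limma), beside 45.3% of all transcripts called. In lol bodies the difference was 0.45 ± 0.15, a ratio of 1.37 (adjusted p = 0.0141), beside 59.5% called. The lol call was lost without lol female body replicate 3 (0.37, adjusted p = 0.069) or lol male body replicate 3 (0.38, adjusted p = 0.0628). Both shares are large, so a call of this kind does not set NaPi-III apart from the other transcripts.

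In heads, NaPi-III differed between females and males by -0.04 log2 in w[1118], with a 95% interval of -0.35 to 0.27 (adjusted p = 0.963, limma), and by -0.06 in lol, with an interval of -0.37 to 0.25 (adjusted p = 1). In these comparisons 0.0865% of all transcripts were called, 12 in each strain. The w[1118] count was 1182 without w[1118] male head replicate 3 and 4 to 7 without any of 4 others (male head replicate 1 and the 3 female heads), and the lol count was 2 without lol male head replicate 1, 4 without lol male head replicate 3 and 5 without lol female head replicate 1. The female minus male difference in heads was smaller than that in bodies by 0.59 ± 0.21 (SE) in w[1118] (interaction -0.59, adjusted p = 0.0509, with 21.7% of transcripts called) and by 0.51 ± 0.21 in lol (interaction -0.51, adjusted p = 0.0614, with 38.4% called), and neither passed. The mean of the interaction over both strains, a test added after the values of each strain had been seen, was -0.55 ± 0.15 (adjusted p = 0.00538), where 45.8% of transcripts were called. Read the other way, the same value says that NaPi-III was more head-enriched in males than in females.

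No difference between the strains passed the test for NaPi-III, and the arrays of lol and w[1118] overlapped in each sex and tissue. The lol minus w[1118] difference was 0.12 log2 in female heads (95% interval -0.19 to 0.43, adjusted p = 0.915, limma) and 0.14 in male heads (-0.17 to 0.46, adjusted p = 0.709). In bodies it was -0.13 in females (-0.44 to 0.19, adjusted p = 0.827) and -0.02 in males (-0.34 to 0.29, adjusted p = 0.953). The shares of all transcripts called in these comparisons were 3.63%, 4.68%, 4.87% and 8.65%. The mean of the 4 differences was 0.03, with an interval of -0.13 to 0.18 (adjusted p = 0.844), where 19.6% of transcripts were called. On the linear scale this interval runs from 0.92 to 1.14 times the control level. Without single arrays, the difference ran from -0.26 to -0.0023 in female bodies (without w[1118] replicates 2 and 3), from 0.05 to 0.21 in female heads (without lol replicates 2 and 3) and from 0.07 to 0.22 in male heads (without lol replicates 3 and 2), with no call. Without the 4 head arrays described below, which leaves w[1118] male heads with 1 array, the male head difference was 0.29. The genotype differences of NaPi-III did not pass a test of dependence on sex (-0.10 in bodies and -0.02 in heads) or on tissue (0.25 in females and 0.17 in males), with adjusted p-values between 0.845 and 1. In these tests 0.252% of all transcripts were called for sex in bodies and 0% in heads (where 251 had an unadjusted p under 0.05), and 0.375% for tissue in females and 0.432% in males.

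Fatp1 varied little over the 8 groups. Its 24 values lay between 14.75 and 15.29, and its group means spanned 0.25 log2, from 14.95 ± 0.18 (SD, n = 3) in w[1118] female bodies to 15.20 ± 0.12 in lol female bodies. No pair of single groups passed the test for Fatp1 in any comparison of strain, sex or tissue. The mean head minus body difference over the 4 pairs passed at 0.12 ± 0.05 (SE) log2, a ratio of 1.09 (adjusted p = 0.0393, limma), where 72.5% of all transcripts were called.

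In female heads, Fatp1 read 15.14, 15.21 and 15.07 on the w[1118] arrays and 15.11, 15.23 and 15.23 on the lol arrays. In male heads it read 15.14, 15.25 and 15.21 in w[1118] and 15.26, 15.15 and 15.13 in lol. The 4 head groups could not be ordered, as their ranges overlapped. In female bodies it read 14.75, 15.05 and 15.06 in w[1118] and 15.06, 15.25 and 15.29 in lol. In male bodies it read 14.98, 15.09 and 14.87 in w[1118] and 14.95, 15.09 and 15.20 in lol. The lowest value of all was w[1118] female body replicate 1, and the bodies of both strains spread more widely than the heads.

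The order of the Fatp1 means placed lol female bodies first, followed by w[1118] male heads at 15.20 ± 0.06 (SD, n = 3), lol female heads at 15.19 ± 0.07, lol male heads at 15.18 ± 0.07 and w[1118] female heads at 15.14 ± 0.07. Below them stood lol male bodies at 15.08 ± 0.13, w[1118] male bodies at 14.98 ± 0.11 and w[1118] female bodies. Every neighbouring pair in this order overlapped, and the largest step between neighbours was 0.10.

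Heads exceeded bodies for Fatp1 by 0.19 ± 0.10 (SE) log2 in w[1118] females (adjusted p = 0.173, limma) and by 0.22 ± 0.10 in w[1118] males (adjusted p = 0.0795). The arrays of heads and bodies did not overlap in either of these w[1118] pairs, though neither passed. How many other transcripts separate in this way was not counted. By limma, 38.4% and 55.1% of all transcripts were called in these pairs. Without w[1118] female body replicate 1 the difference in w[1118] females was 0.08 (adjusted p = 0.596). In lol the difference was -0.01 in females (95% interval -0.23 to 0.21) and 0.10 in males (-0.12 to 0.32), where it was 0.03 without lol male body replicate 1 and 0.06 without lol male head replicate 1, and the arrays overlapped. The call for the mean of the 4 pairs was lost in 13 of the 24 fits that left out a single array. Over all 24 of these fits the differences ran from 0.10 to 0.14, with adjusted p-values (limma) from 0.0253 to 0.0816. The lowest of these differences came without w[1118] female body replicate 1.

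The strain comparison of Fatp1 was largest in female bodies, where lol exceeded w[1118] by 0.25 ± 0.10 (SE) log2, a ratio of 1.19 (unadjusted p = 0.0277 and adjusted p = 0.228, limma), and did not pass. Without w[1118] female body replicate 1 this difference was 0.15 (adjusted p = 0.7). The differences were 0.10 in male bodies (95% interval -0.11 to 0.32, adjusted p = 0.635), 0.05 in female heads (-0.17 to 0.27, adjusted p = 0.974) and -0.02 in male heads (-0.24 to 0.20, adjusted p = 0.955). The mean over the 4 pairs was 0.10, with an interval of -0.01 to 0.20 (adjusted p = 0.23), where 19.6% of all transcripts were called. The shares called in the single comparisons were 4.87% in female bodies, 8.65% in male bodies, 3.63% in female heads and 4.68% in male heads.

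No difference between females and males passed the test for Fatp1. The female minus male difference was -0.02 log2 in w[1118] bodies (95% interval -0.24 to 0.19), 0.12 in lol bodies (-0.10 to 0.34), -0.06 in w[1118] heads (-0.28 to 0.16) and 0.01 in lol heads (-0.21 to 0.23). Their mean was 0.01, with an interval of -0.10 to 0.12 (adjusted p = 0.863, limma), where 59.1% of all transcripts were called. For NaPi-III the same mean over bodies and heads was 0.22 ± 0.07 (SE), which passed (adjusted p = 0.0147). In bodies, where 45.3% of transcripts were called in w[1118] and 59.5% in lol, 96.3% and 88.5% of transcripts had a larger absolute sex difference than Fatp1. None of the 6 planned interactions passed for Fatp1, with adjusted p-values between 0.582 and 1, and neither did the sex by tissue mean over both strains (-0.07, adjusted p = 0.586). The genotype interactions were called for 0% to 0.432% of all transcripts. Sex by tissue was called for 21.7% in w[1118], 38.4% in lol and 45.8% as the mean.

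Transcripts that read high on this array differed less between groups. The highest value on any array was 15.92, and transcripts with a mean over 15 (703 in all) had a median range of group means of 0.30 log2, against 1.17 over all transcripts. Fatp1, with a mean of 15.11, lies in that region, and its range of 0.25 exceeded that of 40.8% of those 703 transcripts. Its range exceeded that of 2.65% of all transcripts. NaPi-III had a mean of 14.43 and a range of 1.54, above the 90th percentile of 1.38 for transcripts with means between 14 and 14.5. Its head means of 14.94 to 15.12 stood nearer the top of the scale than its body means of 13.58 to 14.16. The median range was 0.82 for transcripts with means between 13.5 and 14, and 0.36 between 15 and 15.5. A narrowing of the NaPi-III sex difference in heads by this height was not tested. Whether narrow ranges at high levels come from the scale of the array or from transcripts that vary little was not tested.

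**Figure D3:**
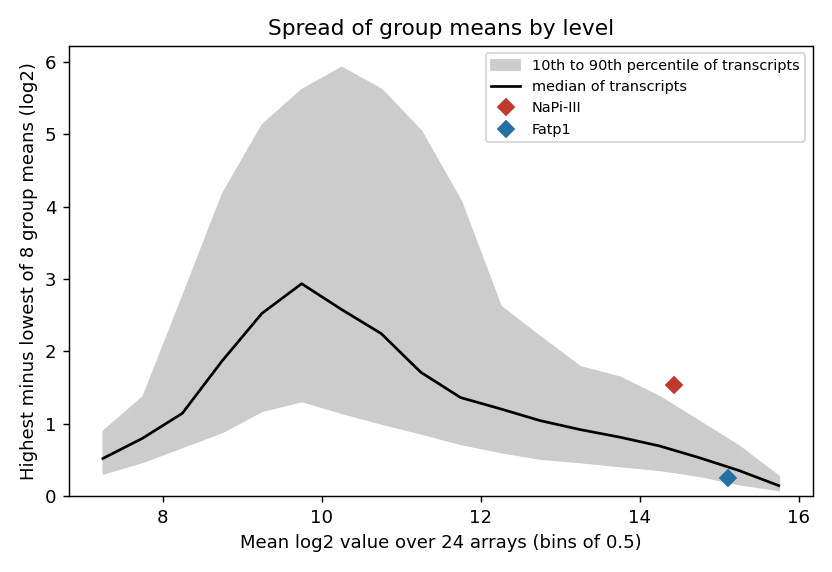
Range of the 8 group means (highest minus lowest, log2) against the mean log2 value over 24 arrays; the line is the median and the grey band the 10th to 90th percentile of transcripts in bins of 0.5, and the diamonds are NaPi-III and Fatp1. The range narrows toward the top of the scale, NaPi-III (1.54) lies above the band, and Fatp1 (0.25) lies within it, below the median line.

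A total of 4 head arrays stood apart from the other 8. These were w[1118] male head replicates 1 and 2, lol male head replicate 1 and lol female head replicate 1. Among 214 transcripts that were lower in heads than in bodies of w[1118] females by at least 2 log2 and differed by under 0.5 between the sexes in w[1118] bodies, the median level was 10.37 to 10.93 on these 4 arrays and 8.68 to 9.11 on the other 8. The w[1118] female heads are among those 8 and served to pick the transcripts, so their low medians are built in by the choice. The lol and w[1118] male head arrays among the 8 read 8.77 to 9.11. NaPi-III read 15.04 to 15.13 on the 4 arrays, inside its range of 14.83 to 15.28 on the other 8. Fatp1 read 15.11 to 15.26 on the 4 arrays and 15.07 to 15.23 on the other 8. Without the 4 arrays, a fit in which w[1118] male heads keep 1 array and borrow the spread of the remaining groups, the mean head minus body difference was 1.14 for NaPi-III (adjusted p = 1.97e-08, limma) and 0.13 for Fatp1, which lost its call (adjusted p = 0.106).

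**Figure D4:**
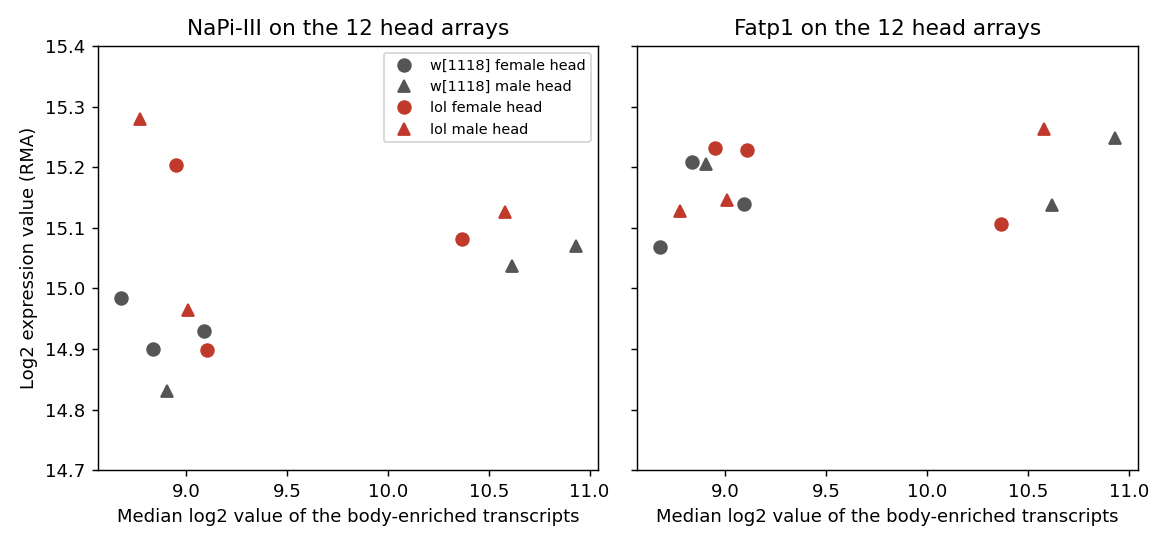
Log2 value of NaPi-III (left) and Fatp1 (right) on the 12 head arrays against the median log2 value of 214 body-enriched transcripts on the same array; colours mark strain (grey w[1118], red lol) and shapes mark sex (circle female, triangle male). The 4 arrays at 10.37 to 10.93 hold NaPi-III values of 15.04 to 15.13 and Fatp1 values of 15.11 to 15.26, close to those of the other 8 arrays.

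The members' values were also set against each other within each tissue. Within the 12 body arrays their values correlated at a Pearson r of 0.18 and a Spearman rho of 0.29, and within the 12 head arrays at -0.02 and -0.01. These are descriptions over arrays that share groups and normalization.

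The transcripts with patterns most like each member were found by Pearson's r over the 24 arrays, which differ mainly by tissue and sex. For NaPi-III, 1127 of the other 13871 transcripts (8.12%) had an r over 0.9, so its pattern was a common one. The most alike were FBtr0070701 (r = 0.98) and FBtr0071421 (r = 0.98), and the latter ranked first over the 8 group means too. After each group's mean was subtracted, r was 0.73 and 0.66, which ranked 124th and 352nd among the other transcripts. Both were picked by r over these same arrays, so part of this likeness among replicates is built in by the choice. The most opposite were FBtr0085595 and FBtr0073363 (r = -0.95 for both), which were highest in lol male bodies. The reference table gives no gene name for these IDs.

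For Fatp1, 0 transcripts had an r over 0.9 and 1 had an r over 0.8. This was FBtr0088764 (r = 0.81), followed by FBtr0082487 (r = 0.79). For FBtr0088764 the likeness lay between replicates as much as between groups, at an r of 0.83 after the group means were subtracted and 0.80 over the 8 group means. That transcript too was picked by r over these same arrays, so part of both values is built in by the choice. The most opposite were FBtr0079409 (r = -0.74) and FBtr0089119 (r = -0.73), both highest in w[1118] male bodies. These IDs too have no gene name in the table.

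Other genes of phosphate transport and of fatty acid uptake, activation, binding and storage could not be set beside the members. Of 11 phosphate transport genes and 22 fatty acid genes listed by symbol, 0 could be matched to a measured transcript ID, so no count of changed members is given for either list.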

How the data were processed

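Per the submitters' processing notes, the authors deposited RMA expression values per transcript. Base log2 was read from the deposited values, which ran from 6.61 to 15.92. The sources used here do not say which arrays were normalized together or with what software. Of 15595 rows, 1722 did not have values on every array and were dropped. Per the series' design text, the array was designed for 16637 transcripts on FlyBase build DM5.7. The reference table of Release 6 genes lists 49 FlyBase transcript IDs as synonyms, 43 of them measured and 16 of these with a single gene. With the builds differing, no coordinates are given, and the tables in hand hold no sequence.

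A limma model (version 3.58.1, R 4.3.3) estimating 8 group means was fitted to all 24 arrays (constant prior). It gave 21 planned comparisons and 1 added later, each adjusted by the Benjamini-Hochberg method over 13873 transcripts. The fit was tested on simulated data, with changes set in transcripts drawn at random from all levels. For lol minus w[1118] in female heads it recovered 0 of 50 changes of 0.25 log2, 9 of 50 of 0.5 and 36 of 50 of 1. For the mean of the 4 strain differences it recovered 9, 30 and 47 of 50. Small strain differences could therefore be missed. Named genes were the members and, for each, the 2 most alike and 2 most opposite transcripts. The members, lists and alternatives, including the 4 head arrays left out, were chosen with earlier results of these data known. Alternatives changed the prior, arrays, scaling, filter and replicate block. Same-numbered replicates did not deviate together throughout (correlations from -0.59 to 0.67). They did so between the strains in male bodies (0.23 to 0.34) and between the sexes in w[1118] heads (0.15 to 0.63). The labels name separate cultures, so the numbers were not used as pairs in the main fit.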

Additional observations from a re-analysis of the deposited data

Results flagged for a closer look

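The sex difference of NaPi-III differed between tissues. Its heads stood nearer the top of the scale (means 14.94 to 15.12) than its bodies (13.58 to 14.16), and the part of that height was not tested. Averaged over both strains, the female minus male difference in heads minus that in bodies was -0.55 log2 (adjusted p = 0.00538, limma), and this mean was tested after the interactions of the single strains had been seen. Neither strain passed alone (adjusted p = 0.0509 in w[1118] and 0.0614 in lol). In bodies all 6 female arrays lay above all 6 male arrays, and in heads the sexes overlapped. How many other transcripts separate in this way was not counted. For this mean 45.8% of all transcripts were called, so the call does not set NaPi-III apart. Without any single array the mean ran from -0.62 to -0.49 and stayed past the threshold (largest adjusted p = 0.0121, limma). Without the 4 head arrays, which leaves w[1118] male heads with 1 array, it was -0.48. The single strains then gave -0.44 in w[1118] and -0.52 in lol. Groups of 3 arrays were not searched for outlying values.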

How the results depend on the processing

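The head minus body calls of NaPi-III, and its sex call in w[1118] bodies, held under every alternative run (the compared groups alone, an intensity trend with a robust prior, median centring, quantile normalization again, the lowest 25% of transcripts dropped, the replicate block, each array left out). No lol minus w[1118] difference of either member passed under these or without the 4 head arrays. Without single arrays, the mean head minus body difference ran from 1.15 to 1.21 for NaPi-III and 0.10 to 0.14 for Fatp1, and the lol body sex difference of NaPi-III from 0.37 to 0.57. The sex by tissue interaction of NaPi-III ran from -0.72 to -0.47 in w[1118] and passed without replicate 2 of female or male bodies or 3 of male heads (adjusted p = 0.0197, 0.032 and 0.0433). In lol it ran from -0.63 to -0.43 and passed without replicate 2 of male bodies, 1 of female bodies or 2 of male heads (0.0295, 0.0402 and 0.0463). It also passed with the intensity trend in both strains (-0.59 and -0.51), quantile normalized again in w[1118] (-0.60) and centred in lol (-0.53). The cause was not tested. Fatp1 head minus body passed with centring in w[1118] females (0.24) and males (0.26), and in those males with the intensity trend (0.22). It ran from 0.17 to 0.28 there without single arrays, and passed without w[1118] male body replicate 2 (0.28, adjusted p = 0.0496, limma). Its mean lost its call without the 4 head arrays (0.13). The replicate block changed no call (head minus body mean of NaPi-III 1.18, of Fatp1 0.12).

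Background counts moved by over 1.5 times in places. With the compared groups alone, strain counts were 171 against 503 in female heads, 59 against 649 in male heads and 782 against 1200 in male bodies, sex in heads 0 against 12 in each strain, and genotype by tissue in males 23 against 60. Without the 4 head arrays, strain in male heads had 225 and sex in lol heads 4. Quantile normalization again gave 21 for sex in w[1118] heads and 27 against 52 for genotype by tissue in females. Dropping the lowest 25% gave 9 against 35 for genotype by sex in bodies, 15 and 30 for genotype by tissue in females and males, and 1654 against 3009 for sex by tissue in w[1118]. The block gave 62 for genotype by sex in bodies. Without single arrays, strain counts ran from 304 to 473 in female heads, 385 to 1268 in male heads, 356 to 681 in female bodies (676 with all) and 612 to 1617 in male bodies, genotype by sex from 10 to 119 in bodies and 0 to 17 in heads, genotype by tissue from 19 to 107 in females and 29 to 118 in males, and sex from 4 to 1182 in w[1118] heads and 2 to 9 in lol heads.

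Some differences near 0 turned sign, and none passed with either sign. For Fatp1, sex in lol heads was -0.0096 centred and -0.0053 quantile normalized again, and head minus body in lol females was 0.0035 centred and 0.03 without the 4 head arrays. NaPi-III sex in w[1118] heads was 0.11 without those arrays. Without single arrays, Fatp1 turned for sex in lol heads (-0.0154 to 0.0519), w[1118] bodies (-0.0795 to 0.0771) and the mean (-0.0048 to 0.0369), tissue in lol females (-0.0823 to 0.0324), strain in male heads (-0.0608 to 0.007) and sex by tissue in w[1118] (-0.1358 to 0.0208). NaPi-III turned for sex in lol heads (-0.1408 to 0.02) and w[1118] heads (-0.1153 to 0.0044), genotype by sex in heads (-0.0998 to 0.061) and bodies (-0.2308 to 0.0225), and strain in male bodies (-0.1423 to 0.0642) and the mean (-0.0031 to 0.0602).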
